A study of Mus musculus with 6 samples.

Results

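This account follows 10 genes that are activated by the tumour suppressor p53, leaving aside the best known of its targets, Cdkn1a (p21). They are Mdm2, Ccng1, Trp53inp1, Sesn1, Sesn2, Phlda3, Zmat3, Plk2, Eda2r and Fas. The genes were taken by name, and every probe set (a set of array probes read as 1 value) annotated with one of these symbols and no other was kept. This gave 20 of the 45037 probe sets tested, and 10 of the 18193 genes. The arrays profiled mouse bone marrow cells sorted as Lin-Sca1+CD150+CD48+, which the titles abbreviate as Progen. Control mice carried floxed c-myc and N-myc alleles (c-myc f2 N-myc f2), and the double knockout (dKO) mice carried the same alleles with MxCre, a Cre transgene that interferon switches on in blood cells and in other tissues. All mice were 8 weeks old and of mixed background, and both groups had 2 daily injections of pI-pC, an interferon inducer, the second of them 3 days before sacrifice. Cells were pooled from 2 mice per control array and 3 mice per dKO array, with 3 arrays in each group. Control 1 is labelled as LT-HSC tissue but has the surface markers and the title of the progenitor arrays. MxCre was present in the dKO mice alone, so its own effect and the loss of both genes cannot be told apart.

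The p53 protein is a transcription factor that accumulates when DNA is damaged, when ribosome production fails or when growth signals conflict. It halts division, adjusts metabolism or starts cell death, and in blood stem and progenitor cells it is known for limiting their survival after stress. It binds pairs of a short half-site (a run of purines, then C, a pair of A or T, G, and a run of pyrimidines), and its target Mdm2 marks it for destruction, which closes a feedback loop.

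The promoter sequences are shown because 2 of the genes, Ccng1 and Sesn1, hold a recognisable p53 pair close to a transcription start; neither gene passed the test between the groups. RefSeq promoter windows (GRCm38.p6, 250 bases before to 50 after each start) were on hand for 8 of the 10 genes, in 9 windows. Each was searched for 2 half-sites of 10 bases at most 13 bases apart, with the C and the G of each half-site kept and at most 2 other mismatches in all. The half-site reads the same on both strands, so one search covers both. Of the 9 windows 2 held such a pair, against 4.09% of all 32851 windows. The Ccng1 pair had 1 mismatch and no spacer and began 195 bases before the start, and windows with at most 1 mismatch made up 0.627% of all. The Sesn1 pair had 2 mismatches and a spacer of 3 bases, and lay before the second of the gene's starts. The stretches below are written 5′ to 3′ on the gene's strand, with the matched pair and its spacer in capitals, at chr11:40755442-40755501 (minus strand) for Ccng1 and chr10:41887233-41887295 (plus strand) for Sesn1.
Ccng1: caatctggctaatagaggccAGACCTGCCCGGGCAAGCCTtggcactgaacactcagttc
Sesn1: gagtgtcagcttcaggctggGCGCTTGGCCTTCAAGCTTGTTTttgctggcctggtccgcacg
A match is a description of letters and not a shown binding site, and p53 elements in introns, such as those known for Mdm2, lie outside these windows. The sequence CACGTG, the E-box that MYC proteins bind, was in 2 of the 9 windows, those of Fas and Eda2r, against 7.15% of all windows.

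Values are RMA values on the log2 scale, where a difference of 1 is 2-fold. The deletion was visible in Myc, which fell by 2.97 ± 0.21 (SE; limma, adjusted p = 0.00014). Of the 3 Mycn probe sets, one fell by 5.27 ± 0.34 (SE; limma, adjusted p over all probe sets = 0.00029), while the others had log2 fold changes of -0.83 and 0.34 and did not pass (the position of the probes relative to the deleted exons is not known here). Control 1 and dKO 1 showed high signal for Xist, the X inactivation RNA of female cells (9.10 and 10.50, against 5.03 to 5.86 in the other arrays). The dKO 3 array had a narrower spread of values than the rest, with an interquartile range of 3.04 against 3.32 to 3.46. Cell type markers also differed. The summed level of 14 measured T and NK cell markers (log2 of the summed linear values) was 11.35 to 11.72 in control and 12.43 to 12.70 in dKO, with 8 higher and 0 lower. That of 12 megakaryocyte markers was 11.67 to 11.72 against 13.30 to 13.55 (6 higher, 0 lower). Of these 12, 10 lay above 0, while Treml1 (-0.61, no overlap between the groups) and Clec1b (-0.29) lay below 0 and did not pass. The summed level of 8 mast cell and basophil markers was 10.71 to 11.21 against 12.29 to 12.86 (5 higher). That of 8 erythroid markers was 11.62 to 11.84 against 12.09 to 12.64 (2 higher). In the other direction stood 13 granulocyte and monocyte markers, at 13.26 to 13.95 against 11.12 to 12.54 (4 lower, 1 higher), and 12 B cell and lymphoid markers, at 11.76 to 12.25 against 10.12 to 10.67 (4 lower). These 4 were Rag1 (-2.28), Rag2 (-1.46), Dntt (-4.99) and Flt3 (-2.73). The B cell genes Cd79a (0.40), Cd79b (0.26), Ms4a1 (0.26) and Pax5 (0.10) lay above 0 and did not pass. Ebf1 (-0.21), Il7r (-0.21), Vpreb1 (-0.67) and Igll1 (-0.73) lay below 0 and did not pass. Of 11 stem cell markers 1 was higher and 0 lower (11.56 to 12.02 against 11.95 to 12.31). Their median log2 fold change was -0.29, with 4 of the 11 above 0. Furthest below 0 was Esam (-1.10), which had no overlap between the groups and did not pass. Of 11 interferon-stimulated genes 3 were higher (10.48 to 10.65 against 11.27 to 11.32). RMA values have no true 0, so none of these markers could be read as absent, and the part of these shifts in the results below was not tested. In sorted pools, more cells of a type and more RNA per cell cannot be told apart.

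Of the 10 p53 target genes, 2 rose in dKO and 0 fell: the kinase gene Plk2, by 2.10 ± 0.35 (SE), or 4.28-fold (limma, adjusted p = 0.00896), and the stress sensor gene Sesn2, by 1.37 ± 0.22, or 2.59-fold (adjusted p = 0.00682). Over all 18193 genes 5.97% were called, 3.12% higher and 2.85% lower. In the fit over genes both stayed past the threshold whichever single array was omitted. The log2 fold change was above 0 in 9 of the 10 genes, beside 57.6% of all genes, and below 0 in Sesn1. The median of the 10 was 0.90, beside 0.05 over all genes. In 7 genes the groups did not overlap and dKO was higher (12.7% of all genes did so) and in 1, Sesn1, dKO was lower without overlap (10.7%). At an unadjusted p under 0.05 there were 8 higher, beside 9.1% of all genes, and 1 lower, beside 1662 of all 18193 genes. The 8 became 4 without dKO 2, 5 without dKO 1 or control 2, 7 without control 1 or control 3 and 9 without dKO 3. Over all 18193 genes the same count was 1656 with all arrays. It was 1855 without dKO 2, 1406 without dKO 1 and 1825 without dKO 3. Leaving out control 1, 2 or 3 gave 1261, 1390 and 1238. The 2 adjusted calls stayed 2 without any one of the other 5 arrays, but without dKO 3 they became 6, with Ccng1, Zmat3, Eda2r and Fas added. In that fit 617 of the 18193 genes were called higher, against 567 with all arrays.

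**Figure D1:**
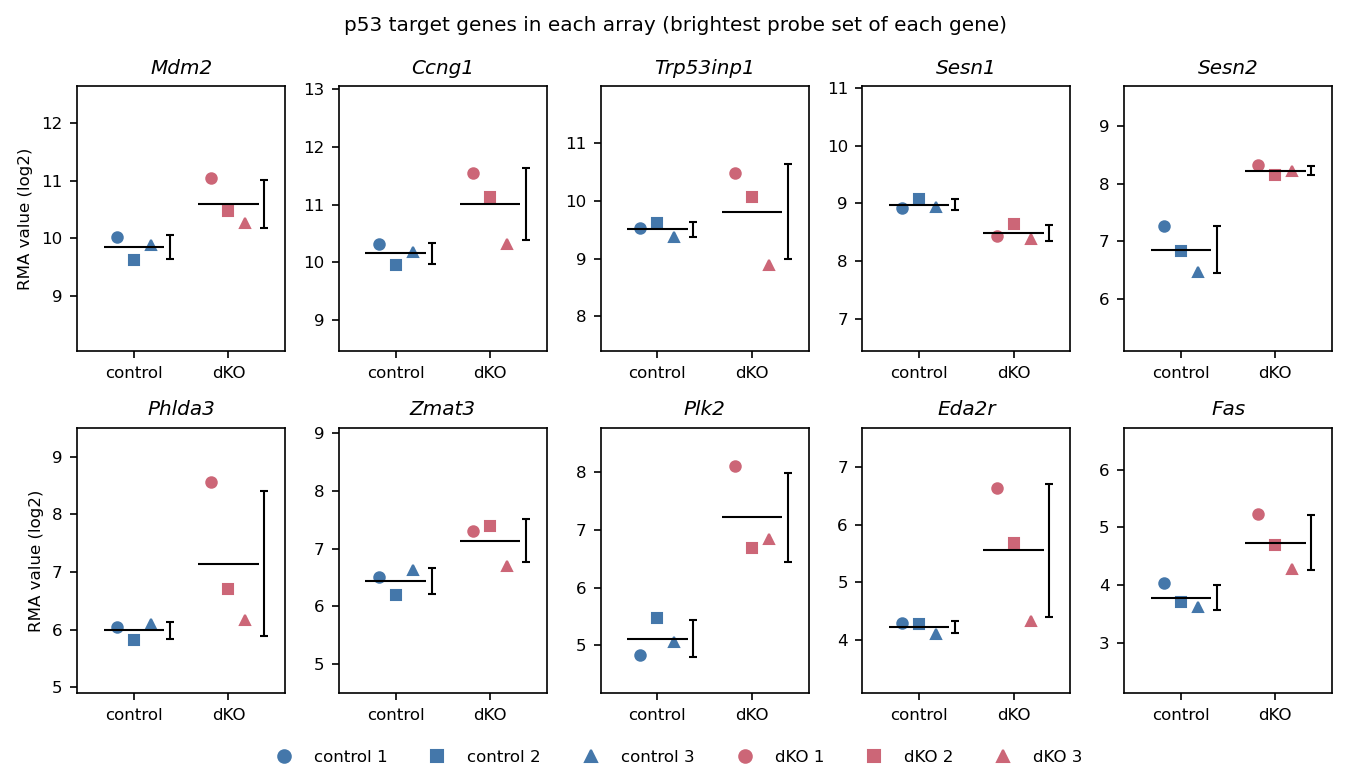
RMA values (log2) of the 10 p53 target genes in each array, blue for control and red for dKO, with the marker shape giving the replicate number, a bar at the mean and an error bar of 1 SD (n = 3); every panel spans the same number of log2 units. Sesn2 and Plk2 are separated in all arrays, Sesn1 is lower in dKO, and in most other panels dKO 1 stands highest and dKO 3 lies near the control arrays.

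Mdm2, the ubiquitin ligase that p53 switches on and that degrades p53 in turn, read 10.03, 9.63 and 9.89 in controls 1 to 3 and 11.06, 10.48 and 10.26 in dKO 1 to 3. All dKO arrays were above all controls, with a gap of 0.23. Its log2 fold change of 0.75 ± 0.23 (SE; 1.68-fold; limma, adjusted p = 0.109) did not pass. A second Mdm2 probe set gave 7.90 to 7.97 in control and 9.37, 9.03 and 8.28 in dKO, a log2 fold change of 0.96 ± 0.27 (adjusted p over all probe sets = 0.107). The third gave 0.06 with a 95% interval from -0.51 to 0.62, and its groups overlapped. Mdm4, the relative of Mdm2 that also holds p53 in check, had a log2 fold change of 0.29 ± 0.27 and did not pass (adjusted p = 0.661).

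Ccng1, cyclin G1, is induced by p53 and recruits a phosphatase to Mdm2. It read 10.32, 9.96 and 10.18 in control and 11.55, 11.14 and 10.32 in dKO. The dKO 1 and 2 arrays were clearly above the controls, while dKO 3 matched control 1. The log2 fold change of 0.85 ± 0.29 (1.80-fold) did not pass (limma, adjusted p = 0.149), and without dKO 3 it was 1.19 with adjusted p = 0.0167. With any one of the other arrays left out it lay between 0.57 and 0.93 (adjusted p = 0.208 to 0.367). The other Ccng1 probe sets gave 0.78 and 1.10, with no overlap between the groups and adjusted p over all probe sets of 0.149 and 0.0872. Its paralogue Ccng2, a FOXO target, fell from 8.64 ± 0.10 to 7.47 ± 0.42 (SD, n = 3; limma, adjusted p = 0.0163). That call was lost without control 2 (0.0748) or control 3 (0.058), and the second Ccng2 probe set gave -0.76 and did not pass.

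Zmat3, a zinc finger protein that binds RNA and acts in tumour suppression by p53, read 6.52, 6.19 and 6.62 in control and 7.31, 7.39 and 6.71 in dKO. The groups were apart by 0.085, with dKO 3 just above control 3. The log2 fold change was 0.69 ± 0.23 (limma, adjusted p = 0.126; 0.033 without dKO 3, where it was 0.91). With any other single array omitted it was 0.57 to 0.78 (adjusted p = 0.198 to 0.358).

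Plk2, a polo-like kinase that p53 induces and that is also a serum response gene, showed the widest separation of the 10. It read 4.83, 5.47 and 5.06 in control and 8.11, 6.69 and 6.85 in dKO, so even the lowest dKO array was 1.22 above the highest control. With any single array left out of the fit over genes, the log2 fold change stayed between 1.65 and 2.36 and the limma adjusted p at most 0.0333. A second Plk2 probe set lay among the dimmest 0.722% of all probe sets and gave 0.17 ± 0.22, so it carried little signal in either group. The other polo-like kinase genes had values near 0: Plk1 -0.11, Plk3 0.12 and Plk4 0.12, none of which passed.

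The sestrins restrain the growth kinase mTORC1 when amino acids or redox balance fail, and both Sesn1 and Sesn2 are p53 targets. Here they stood on opposite sides of 0. Sesn2 read 7.27, 6.83 and 6.47 in control and 8.31, 8.15 and 8.21 in dKO, with a gap of 0.88 between the groups. It was the one gene of the 10 whose dKO arrays agreed more closely than its controls (SD 0.08 against 0.40). The second Sesn2 probe set gave 0.51 ± 0.22 (adjusted p over all probe sets = 0.30) and separated the groups by 0.03, so the size of the rise differed between the probe sets.

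Sesn1 read 8.92, 9.08 and 8.94 in control and 8.44, 8.64 and 8.39 in dKO. Every dKO array was below every control. Its log2 fold change was -0.49 ± 0.17 (limma, adjusted p = 0.14), and its other probe sets gave -0.82, -0.93 and -0.23, of which the first 2 also had no overlap between the groups. No Sesn1 probe set passed over all probe sets (lowest adjusted p = 0.0772). With probe sets that may match several genes (_s_at and _x_at) left out, Sesn1 was represented by the one at -0.93 and passed (adjusted p = 0.047). The difference Sesn2 minus Sesn1 within each array was 1.86 higher in dKO (SD 0.43 in control and 0.20 in dKO, n = 3). A two-sided exact permutation test gave p = 0.1, the smallest that 3 against 3 arrays allow. That outcome was fixed once Sesn2 and Sesn1 each separated the groups, in opposite directions, so the test adds nothing to their values. Sesn3, a sestrin under FOXO rather than p53, had a log2 fold change of -0.16 ± 0.18 (adjusted p = 0.747).

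Trp53inp1, a nuclear protein that promotes p53 phosphorylation and autophagy, gave no consistent direction. It read 9.53, 9.62 and 9.37 in control and 10.49, 10.06 and 8.89 in dKO. Here dKO 1 and 2 were above all controls and dKO 3 was below all of them. The log2 fold change was 0.31 with a 95% interval from -0.49 to 1.10 (limma, adjusted p = 0.743), and without dKO 1 it turned to -0.029 (adjusted p = 0.983). The second probe set showed the same arrangement, at 8.67 and 8.38 in dKO 1 and 2 and 7.02 in dKO 3 against 7.55 to 7.95 in control. Its paralogue Trp53inp2, a regulator of autophagy, rose from 5.75 ± 0.31 to 7.38 ± 0.42 (SD, n = 3; limma, adjusted p = 0.00584), though a much dimmer probe set gave 0.24 and did not pass.

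Phlda3, a small membrane-binding protein that blocks the survival kinase AKT, was the least even of the 10. It read 6.05, 5.82 and 6.10 in control and 8.57, 6.71 and 6.16 in dKO. One array, dKO 1, stood far above the rest, and dKO 3 was 0.06 above the highest control. The log2 fold change of 1.15 ± 0.51 (limma, adjusted p = 0.267) was 0.44 without dKO 1. Among its paralogues, Phlda1 rose from 4.88 ± 0.50 to 7.57 ± 0.39 (SD, n = 3; adjusted p = 0.00099), and the imprinted gene Phlda2 had a log2 fold change of -0.03.

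The members that encode receptors were dim. Fas, the death receptor that triggers caspases when bound by Fas ligand, read 4.03, 3.70 and 3.61 in control and 5.23, 4.69 and 4.28 in dKO. All dKO arrays were above all controls, with a log2 fold change of 0.95 ± 0.25 (1.94-fold; limma, adjusted p = 0.0614). Without dKO 3 this was 1.18 and passed (adjusted p = 0.0268), and without any one of the others it was 0.70 to 1.08 and did not (adjusted p = 0.0783 to 0.200). Its probe set was brighter on average than 23.9% of all probe sets, and RMA is known to compress differences at low levels. Fasl, the ligand, rose from 4.98 ± 0.26 to 7.14 ± 1.06 (SD, n = 3; adjusted p = 0.0213), a call lost without control 2 (0.0631), control 3 (0.076) or dKO 2 (0.0819), and its second probe set gave 2.50. Fas ligand is made mainly by activated T and NK cells, and the Lin- gate is meant to remove mature T cells. Of the 14 T and NK cell markers 8 were higher in dKO, while Cd247 (-0.45), Cd8a (-0.36) and Cd4 (-0.14) lay below 0 and did not pass. Whether T or NK cells contributed to the Fasl signal was not tested. Of the 8 measured genes of the Fas pathway Fasl alone passed: the adaptor Fadd gave 0.66 and the initiator caspase gene Casp8 0.36.

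Eda2r, the X-linked receptor for ectodysplasin A2, read 4.30, 4.28 and 4.11 in control and 6.64, 5.68 and 4.34 in dKO. The dKO 1 and 2 arrays were more than 1 unit above every control, and dKO 3 was level with control 1 (gap 0.04). The receptor gene had a log2 fold change of 1.33 ± 0.47 (2.51-fold; limma, adjusted p = 0.159), and without dKO 3 it was 1.93 (adjusted p = 0.00985). Omitting another single array gave 0.78 to 1.36 (adjusted p = 0.261 to 0.341). With control 1 and dKO 1, the pools with Xist signal, omitted it was 0.82 and did not pass (adjusted p = 0.448). The related receptor genes Edar and Tnfrsf19 had log2 fold changes of -0.08 and 0.18.

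**Figure D2:**
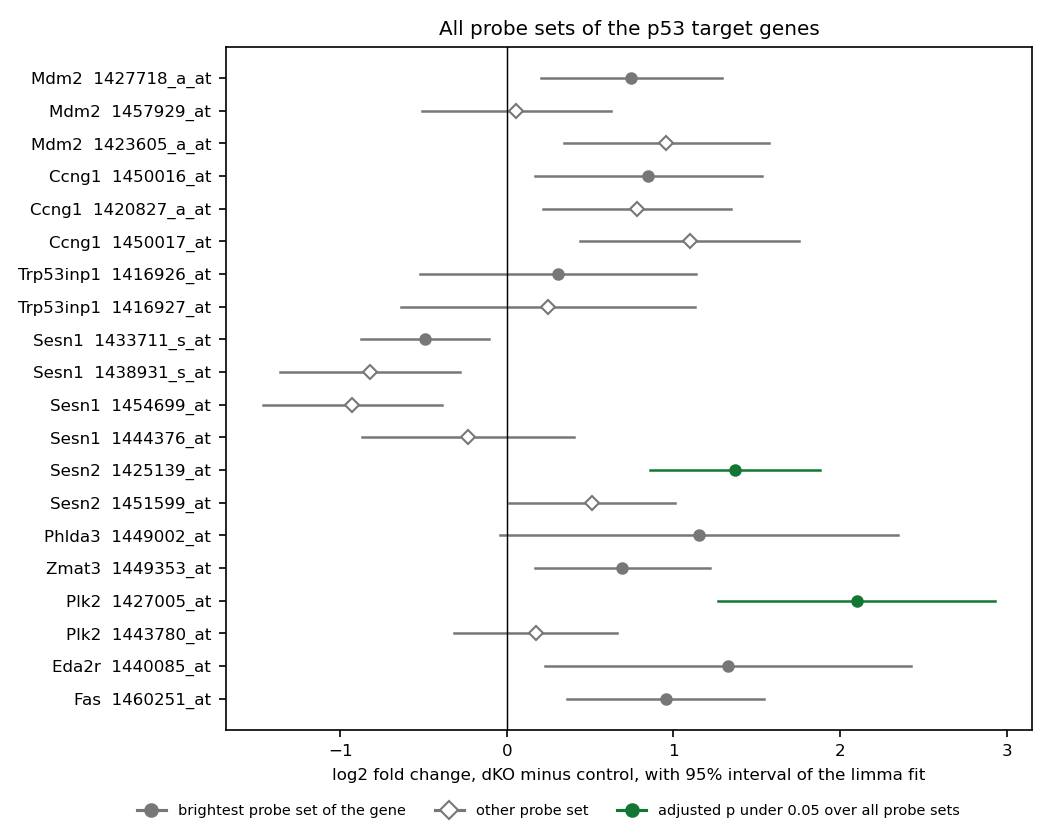
Log2 fold change (dKO minus control) of all 20 probe sets of the p53 target genes, with the 95% interval of the limma fit; filled circles are the brightest probe set of each gene, open diamonds the others, and green marks an adjusted p under 0.05 over all probe sets. One probe set each of Sesn2 (1.37) and Plk2 (2.10) passes, and the 4 Sesn1 probe sets are the only ones below 0.

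Over probe sets, 2 of the 20 were called higher and 0 lower, while 3.6% of all 45037 were called, 1.83% higher and 1.78% lower. At an unadjusted p under 0.05 there were 11 higher and 3 lower, with no count over all probe sets at that level to set beside them. The groups did not overlap in 11 probe sets that were higher in dKO (10.7% of all probe sets) and 3 that were lower (10.6%), and these 3 belonged to Sesn1. This count of calls moved with single arrays. It was 1, called higher, without control 1 or dKO 1, and 0 without control 2 or control 3 (limma, 6 and 9 higher at an unadjusted p under 0.05). Without dKO 2 it was 3, of which 2 were higher and 1, of Sesn1, lower. Without dKO 3 it was 8, all higher.

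The dKO arrays differed among themselves more than the controls did. The median change of the 10 genes against the control mean was 1.42 in dKO 1, 0.93 in dKO 2 and 0.22 in dKO 3, while the median over all genes was 0.04, -0.03 and 0.12. At least 2-fold above the control mean stood 7 of the 10 genes in dKO 1, 3 in dKO 2 and 2 in dKO 3, beside 4.12%, 3.3% and 3.77% of all genes. Of the 3 dKO arrays, dKO 1 was the highest for 8 of the 10 genes and for 28.4% of all genes, and dKO 3 the lowest for 8 of the 10 and for 31.1% of all genes. With the arrays quantile-normalized again, which removes the narrower spread of dKO 3, dKO 1 was the highest for 7 and dKO 3 the lowest for 7, and the medians were 1.44, 0.92 and 0.27. The SD was larger in dKO than in control for 9 of the 10 genes and for 65.3% of all genes. The median SD of the 10 genes was 0.55 in dKO and 0.19 in control, against 0.26 and 0.18 over all genes. dKO 1 is also the dKO pool with Xist signal, and the part of sex in this order was not tested. Cdkn1a did not follow it, at 10.78, 10.10 and 10.67 in dKO 1 to 3 against 5.91, 7.40 and 6.21 in control.

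**Figure D3:**
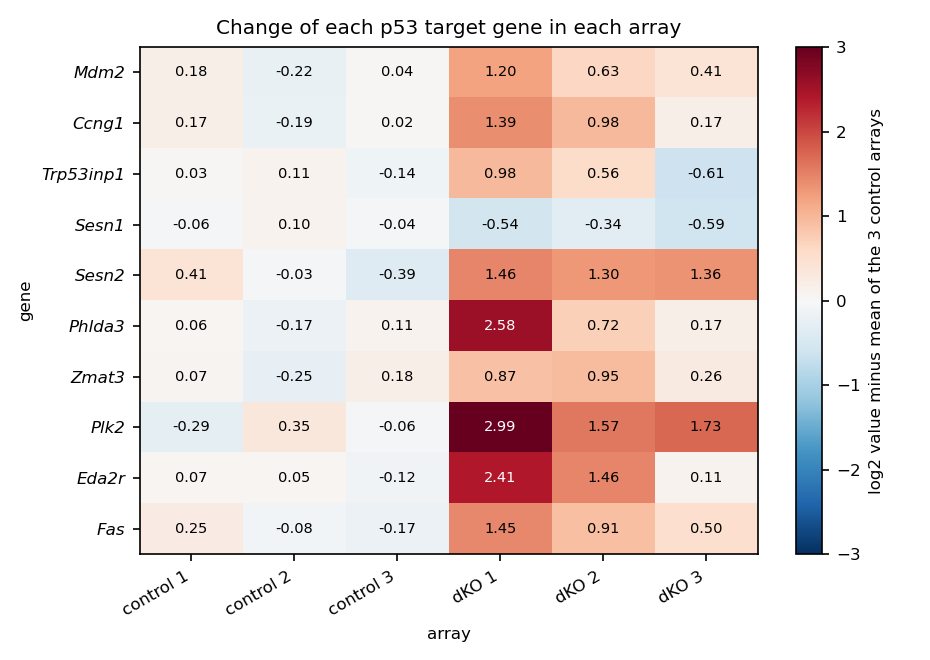
Each cell gives the log2 value of a p53 target gene in one array minus the mean of the 3 control arrays, red for higher and blue for lower. The column of dKO 1 holds the largest values (2.99 for Plk2, 2.58 for Phlda3, 2.41 for Eda2r), and that of dKO 3 lies between -0.61 and 0.50 except for Sesn2 (1.36) and Plk2 (1.73).

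The wider set of p53 targets was mixed. Of 39 measured genes in 3 lists 4 rose and 1 fell, with 25 above and 14 below 0 and a median of 0.17. Among 14 genes of arrest and DNA repair Cdkn1a alone rose, by 4.01 ± 0.36 (limma, adjusted p = 0.000457). The polymerase gene Polk (0.94; adjusted p = 0.0785), the antiproliferative gene Btg2 (0.66; 0.164), Rprm (0.61; 0.221) and Gadd45a (0.53; 0.318) came next and did not pass, and the repair genes Ddb2 (-0.31) and Xpc (-0.19) lay below 0. The p53 phosphatase gene Ppm1d, a feedback target like Mdm2, stood at -0.0024.

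Among 12 death genes 0 rose by limma (3 were higher at an unadjusted p under 0.05), and Dram1, an autophagy regulator, fell by 1.45 ± 0.36 (adjusted p = 0.0497). That call was lost without any single array other than control 1 (up to 0.18 without control 2). The TRAIL receptor gene Tnfrsf10b read 5.07, 5.23 and 5.78 in control and 8.40, 6.79 and 6.11 in dKO, with the dKO arrays in the same order as for Phlda3 and Eda2r (log2 fold change 1.74 ± 0.49; adjusted p = 0.0793). The BH3-only genes Bbc3 (PUMA) and Pmaip1 (NOXA) gave 0.68 (adjusted p = 0.0954) and 0.89 (0.397), and the exonuclease gene Aen 0.59 (0.112). Siva1 lay below 0 without overlap between the groups and did not pass (-0.35, limma adjusted p = 0.33).

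Among 13 genes of metabolism, redox and secretion 3 rose and 0 fell. Thbs1, a matrix protein also stored in platelets, rose by 4.09 ± 0.18 (limma, adjusted p = 1.31e-05), next to the higher summed level of megakaryocyte markers given above. Ddit4, an mTORC1 inhibitor, rose 2.01-fold (adjusted p = 0.0317), and Prkab1, a subunit of the energy sensor AMPK, rose by 0.83 ± 0.21 on the log2 scale (0.0496). Ddit4 kept its call only without dKO 3 (0.0286, up to 0.106 without dKO 1), and Prkab1 lost it with each array left out (0.0711 to 0.158). The peptide transporter gene Tap1 (0.82, limma adjusted p = 0.0516) and the iron reductase gene Steap3 (1.16, 0.0744) did not pass. Notch1 (-0.72, 0.11), with no overlap between the groups, and Sco2 (-0.52, 0.301) lay below 0 and did not pass. Of the 13 genes 8 lay above 0.

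**Figure D4:**
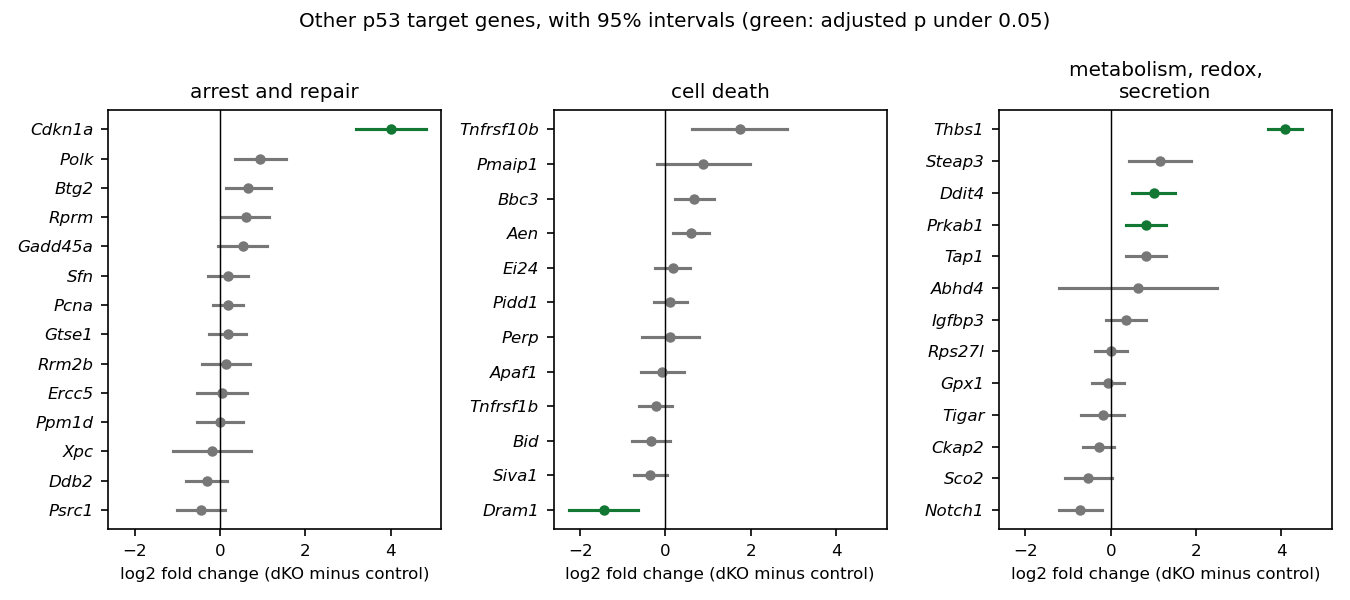
Log2 fold changes (dKO minus control) of 39 other p53 target genes with 95% intervals of the limma fit, in panels by role, green where the adjusted p over all genes is under 0.05. Cdkn1a (4.01) and Thbs1 (4.09) stand far to the right, Dram1 (-1.45) is the one gene called lower, and most other intervals include or lie near 0.

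The genes that control p53 showed few calls. Of 16 measured 0 rose (limma; 0 also at an unadjusted p under 0.05) and 1 fell, the ribosomal protein gene Rpl11, whose free protein inhibits MDM2. It fell by 0.73 ± 0.17 (adjusted p = 0.0393), a call kept only without dKO 2 (0.0488) and lost without any other array (up to 0.142 without control 1). The kinase genes Chek2 (-0.43; adjusted p = 0.208) and Atm (-0.45; 0.36) and the methyltransferase gene Prmt5 (-0.42; 0.374) did not pass. Trp53 was not analysed here. Of 15 measured cell cycle genes that p53 lowers through p21 and the DREAM complex, 1 fell and 0 rose (limma; 0 also at an unadjusted p under 0.05), with a median of -0.20. The cytokinesis motor gene Kif23 fell by 0.85 ± 0.17 (adjusted p = 0.0193), a call lost without control 1, control 2, dKO 1 or dKO 2 (0.0535 to 0.09), and Foxm1 (-0.44; 0.259) and Chek1 (-0.48; 0.295) did not pass.

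Sesn2 is also switched on by ATF4, the factor of amino acid stress. Of 12 measured ATF4 genes 5 rose and 1 fell, with a median of 0.84. Vldlr (2.48 ± 0.26), Atf3 (1.95 ± 0.31), Nupr1 (1.85 ± 0.28) and Ddit3 (1.10 ± 0.20) rose, and Atf5 rose by 1.24 ± 0.31 near the threshold (limma, adjusted p = 0.0496). Atf5 lost its call without any single array other than dKO 3, and Ddit3 without control 3 (0.0506). Probe sets of one gene disagreed in size, with 0.37 to 1.82 in the other Vldlr probe sets and 0.32 in the other of Ddit3. The serine synthesis gene Phgdh fell by 1.14 ± 0.22, a call lost without control 2, control 3, dKO 1 or dKO 2 (up to 0.0746), and the textbook ATF4 target Asns gave -0.18. Of 12 immediate early genes, which serum induces as it does Plk2, 3 rose and 0 fell: Egr1 by 3.68 ± 0.29, Egr2 by 2.43 ± 0.42 and Ier3 by 1.35 ± 0.19. Fos gave -0.53 and did not pass. Of 11 FOXO targets, the class of Sesn3 and Ccng2, 2 rose and 2 fell: the insulin signalling adaptor Irs2 rose by 2.15 ± 0.22 and Cited2, a transcriptional regulator, by 0.97 ± 0.19, whereas Ccng2 and the repressor gene Bcl6 fell by 1.17 and 1.48. Cited2 lost its call without control 1, control 3 or dKO 1, and Bcl6 kept its call only without control 1. Whether ATF4 or serum response acted on Sesn2 or Plk2 was not tested.

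The genes whose pattern over the 6 arrays was most like the mean of the 10 were Zdhhc15 (Pearson r = 0.997), Mir22hg (0.993), Eaf1 (0.993), Nol4l (0.991) and Rabgef1 (0.990). The r includes the difference between the groups and comes from 6 points searched over all other genes, so it is a description alone. Each had dKO 1 highest and dKO 3 lowest among the dKO arrays, an order that follows from choosing genes by their likeness to the 10. Mir22hg, for example, read 6.22, 5.51 and 4.97 in dKO 1 to 3 against 4.26 to 4.63 in control. Cdkn1a was less alike, with r = 0.785.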

How the data were processed

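The authors deposited log2 expression values, and RMA is the tool that the submitters' processing notes name. This method removes background, makes the arrays' distributions alike by quantiles and combines the probes of a set. The RMA version and the arrays it was run on together are not stated here. RNA of the sorted cells was amplified in 2 rounds before labelling, per the labels' protocols. Array medians ran from 5.91 to 5.94. The interquartile range was 3.04 in dKO 3 and 3.32 to 3.46 in the other arrays, so the deposited distributions were not fully alike. The number of arrays limits the precision.

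Of 45101 probe sets 64 were controls; 34945 of the rest had 1 symbol, 932 several and 9160 none, and 34741 were matched by gene identifier to RefSeq to update symbols. Each gene was read from its brightest probe set. Groups came from the titles. The two-sided test came from the R 4.3.3 package limma 3.58.1, with lmFit, eBayes and group as the only term, once over genes and once over probe sets, with Benjamini-Hochberg adjustment over all of them and a threshold of 0.05. Errors after ± are SE for fold changes and SD for means. Labels with the same replicate number were checked for pairing and did not vary together (r of deviations -0.00045 to 0.056). The steps were tested on simulated data. Genes named were all 10 members, called genes and those with the smallest p of each other list, paralogues, and the 5 genes most like the members. Ddb2, Xpc, Ppm1d, Asns and Fos were added after their values were seen. Pmaip1 and some cell type markers that did not pass were also named outside this rule. The members and lists were chosen with earlier results of these data known. Figures used matplotlib 3.10.9.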

Additional observations from a re-analysis of the deposited data

How the results depend on the processing

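The p53 target genes called numbered 2 and were Sesn2 and Plk2, and in the fit over genes both kept their calls in all 17 alternatives. In the fit over probe sets both calls were lost without control 2 or control 3. There the Plk2 call was also lost without control 1, and the Sesn2 call without dKO 1. The count of p53 target genes called was 4 with a variance trend, 8 with array weights and 2 to 6 with single arrays left out. The array weights gave dKO 3 the lowest weight (0.35) and dKO 1 the highest (1.73). The probe sets called (2) numbered 4 under the filter on dim probe sets, 10 with array weights and 5 at a threshold of 0.1. In each of these settings 1 of them, of Sesn1, was called lower. With single arrays left out they numbered 0 to 8. The calls over all genes (1086) numbered 1341 with a variance trend and 1697 with array weights. They numbered 578 without control 1 and dKO 1 together and 572 to 1081 with single arrays left out. The other p53 targets called (5) numbered 9 under the filter, 3 after quantile normalization again, 8 with a variance trend, 11 with array weights, 10 at a threshold of 0.1, 3 without control 1 and dKO 1 together and 2 to 4 with single arrays left out. The causes of these shifts were not tested. The median of the 10 genes kept its sign throughout (0.59 to 1.18). Trp53inp1 reversed without control 1 and dKO 1 together (-0.016) and ran from -0.029 (without dKO 1) to 0.77 (without dKO 3) with single arrays left out, passing in none. With the replicate block, which the labels' shared numbers allow, 3 of the 10 genes were called (Fas joined, adjusted p = 0.0322), with 2 probe sets, 4 other p53 targets and 999 genes in all. Dim genes such as Fas and Eda2r limit what these arrays can show.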
